A study of Mus musculus with 11 samples.

Results

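Abca1, Abcg1, Apoe, Lrp1 and Trem2 encode proteins by which macrophages take up, sense, carry and export lipids. These 5 genes were selected by name, and all 5 were found among the 770 genes of the table and among the 657 genes tested. They were measured in lungs of female BALB/c mice that had received 4T1-luc2 cells in the mammary fat pad at 8 weeks of age. These cells are a luciferase-expressing triple-negative mammary carcinoma line. Every mouse of both groups carried this tumor, had it resected on day 13 and was given an antibody intraperitoneally at 1 mg/kg between days 7 and 28 (3 injections weekly over 3 weeks), which was either the control antibody hIgG1 (5 mice) or the agonist antibody antiChemR23 against the receptor ChemR23, called αChemR23 below (6 mice). Lungs were taken at euthanasia and dissociated into single cells before total RNA was extracted, and 1 lung per mouse was hybridized on the nCounter, a platform on which barcoded probes are counted directly on the RNA without amplification. There was no tumor-free or untreated group, the sources used here do not give the collection day of single mice, and this day and metastatic load cannot be told apart from the treatment. Groups follow the sample labels, although the design text and a figure legend count 1 fewer hIgG1 and 1 more αChemR23 mouse, so that 1 mouse labelled hIgG1 may have received αChemR23, and which one is not known.

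Cholesterol leaves macrophages through ABC transporters, of which Abca1 loads lipid-poor apolipoproteins and Abcg1 loads high-density lipoprotein particles. Apolipoprotein E, the product of Apoe, carries this lipid between cells and is bound by Lrp1, a large endocytic receptor of macrophages, fibroblasts and other cells, which also takes up proteases and apoptotic material. Trem2 is a surface receptor of macrophages for lipids and lipoproteins and marks lipid-laden macrophages. In mouse macrophages, Abca1, Abcg1 and Apoe are known targets of the liver X receptors, nuclear receptors that sense oxidized cholesterol and bind spaced direct repeats of a short half-site. In the lung, alveolar macrophages depend on Abcg1 and Abca1 to clear surfactant lipid.

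The promoter of Abca1 is shown because Abca1 is set against its functional partner Abcg1 below, and the mean differences of these transporters between the groups had opposite signs, neither of them past the test. The window runs from 250 bases before to 50 bases after a RefSeq start of the gene (GRCm38.p6, chr4:53159846-53160145, minus strand). The sequence is that of the C57BL/6J reference and not of BALB/c. Capitals mark the match to a direct repeat of the half-site GGTNA, searched on both strands as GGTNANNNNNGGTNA.
Abca1: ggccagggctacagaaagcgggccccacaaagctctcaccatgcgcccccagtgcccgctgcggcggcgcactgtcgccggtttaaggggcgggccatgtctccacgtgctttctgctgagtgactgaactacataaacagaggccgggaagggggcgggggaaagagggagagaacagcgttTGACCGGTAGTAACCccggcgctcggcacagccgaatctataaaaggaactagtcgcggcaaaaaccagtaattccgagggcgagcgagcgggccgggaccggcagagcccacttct
The match lies on the opposite strand, at positions -67 to -53 from this start. The annotated gene extends further upstream, to chr4:53159988, so that the match lies within it. Of 32851 promoter windows of this length in the RefSeq table, 0.718% held the motif. The windows of Apoe, Lrp1 and Trem2 did not contain these letters, and no window of Abcg1 was analysed here. Binding was not measured, so that the match is a description of the sequence.

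Values are log2 normalized counts, normalized by the authors in nSolver, and levels of different genes are not compared because each gene has its own probe. All mice had the same mean over 20 housekeeping genes, 9.01. Totals were 526091 to 715706 normalized counts per mouse, which came from an estimated 590855 to 680774 raw counts. Trem2 rested on an estimated 23 to 50 raw counts per mouse, Abca1 on 836 to 1166, Abcg1 on 995 to 1304, Lrp1 on 2184 to 2954 and Apoe on 4975 to 6160. The counting error of Trem2 was on average 0.25 on the log2 scale, close to its SD within groups of 0.30, and Trem2 lay only 1.65 to 4.26 times above the lowest value of its mouse. Abca1 had a counting error of 0.046 and an SD within groups of 0.16, and Apoe had 0.020 and 0.14. The SD of these genes within groups was 3.43 and 7.19 times their counting error, against 1.18 times for Trem2. The SD of Lrp1 within groups, 0.065, stood at the 2.28th percentile of all tested genes.

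In the lungs of αChemR23 mice, the means of Trem2, Abca1, Lrp1 and Apoe were higher than with hIgG1 by 1.23, 1.12, 1.07 and 1.06 times, and the mean of Abcg1 was 1.02 times higher with hIgG1. None of these differences passed an adjusted p of 0.05 in limma, and the groups overlapped for all 5 genes. Over all tested genes, 0% passed at an adjusted p and 9.89% at an unadjusted p of 0.05 in limma (7.15% higher and 2.74% lower with αChemR23), where 0 of the 5 genes passed. Of the 65 genes at an unadjusted p under 0.05, 47 were higher with αChemR23, against 26 of 58 after quantile normalization and 22 of 57 with equal medians. A higher mean with αChemR23 was found for 57.4% of the tested genes and for 4 of the 5, and a lower mean for 42.6% and 1 of the 5. Groups did not overlap for 0.761% of the tested genes in the higher and 0.304% in the lower direction. In dissociated whole lung, fewer cells of a type and less RNA per cell cannot be told apart.

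**Figure D1:**
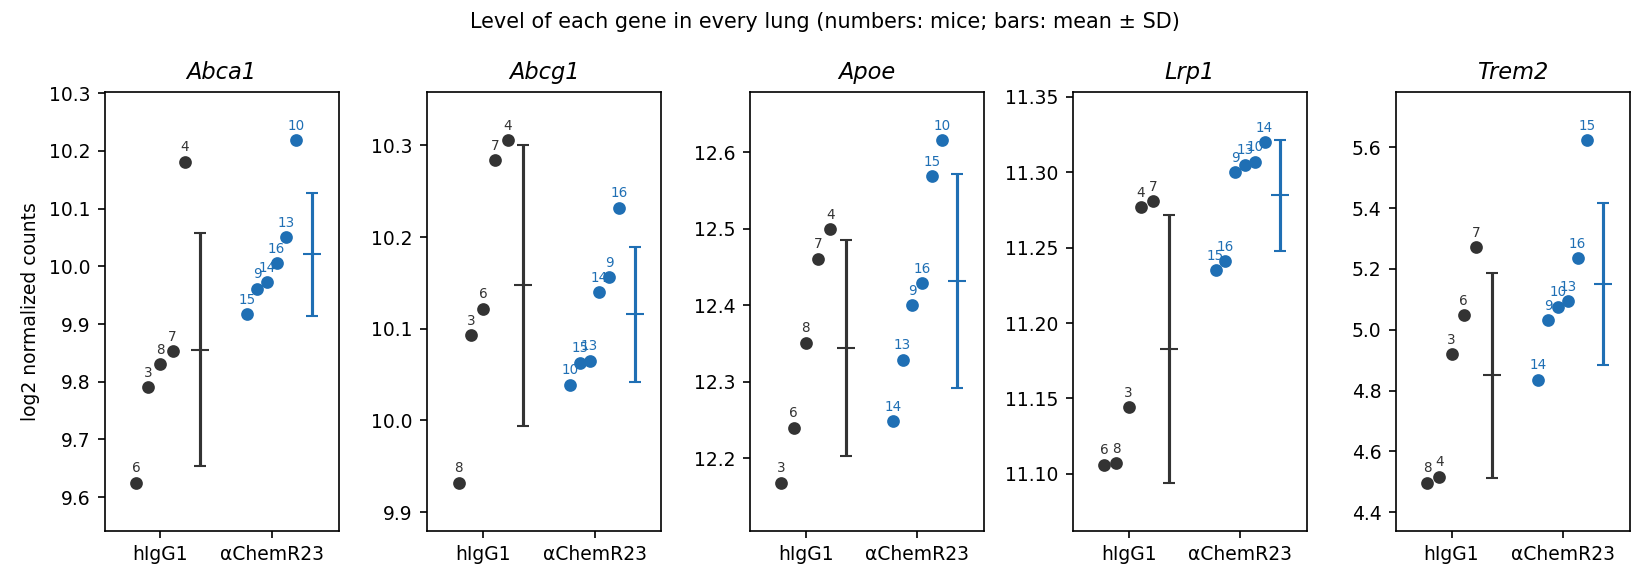
Log2 normalized counts of Abca1, Abcg1, Apoe, Lrp1 and Trem2 in each lung (y axes differ between genes and do not start at 0), with hIgG1 mice in black, αChemR23 mice in blue, the mouse number above each point and bars for the mean ± SD (n = 5 and 6). The groups overlap for each gene, and 4 of the 6 αChemR23 mice lie above all hIgG1 mice for Lrp1.

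Abca1, the exporter to lipid-poor apolipoproteins, was at 9.79, 10.18, 9.63, 9.85 and 9.83 in hIgG1 mice 3, 4, 6, 7 and 8. With αChemR23 it ranged from 9.92 to 10.22, with a median of 9.99. Mouse 4 was the highest hIgG1 mouse, and the other 4 lay below every αChemR23 mouse. The mean was 9.86 ± 0.20 with hIgG1 (SD, n = 5) and 10.02 ± 0.11 with αChemR23 (SD, n = 6), a log2 difference of 0.16 (standard error 0.09, 95% interval -0.03 to 0.36, adjusted p = 0.495 from limma). An exact two-sided permutation test of this single gene gave p = 0.123. With single mice left out the difference ran from 0.11 without hIgG1 mouse 6 (adjusted p = 0.677 from limma) to 0.25 without hIgG1 mouse 4 (adjusted p = 0.427 from limma).

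Abcg1, the exporter to high-density lipoprotein, was at 10.09, 10.31, 10.12, 10.28 and 9.93 in the same hIgG1 mice. The αChemR23 mice had values of 10.04 to 10.23 with a median of 10.10, all inside the range of the hIgG1 mice. Means were 10.15 ± 0.15 and 10.12 ± 0.07 (SD, n = 5 and 6), with a log2 difference of -0.03 (standard error 0.07, 95% interval -0.19 to 0.13, adjusted p = 0.923 from limma). The sign of this difference turned without hIgG1 mouse 4 (0.008) or 7 (0.003). The interval excludes a mean with αChemR23 more than 1.09 times that with hIgG1.

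The transporters were then set against each other within each mouse, where any scaling of a whole mouse cancels. The log2 value of Abca1 minus that of Abcg1 was -0.30, -0.13, -0.50, -0.43 and -0.10 in hIgG1 mice 3, 4, 6, 7 and 8. In αChemR23 mice it ran from -0.23 to 0.18 and was highest in mouse 10, and 2 of the 5 hIgG1 mice lay within this range. Means were -0.29 ± 0.18 and -0.10 ± 0.15 (SD, n = 5 and 6), a difference of 0.20 that did not pass (exact permutation test, p = 0.0887, adjusted p = 0.368 over 10 pairs). Among the 10 pairs of the 5 genes, Abcg1 minus Lrp1 had the smallest p. It was -1.04 ± 0.08 with hIgG1 and -1.17 ± 0.09 with αChemR23 (SD, n = 5 and 6), a difference of -0.13 (exact permutation test, p = 0.0411, adjusted p = 0.368). After quantile normalization this difference was -0.055 (exact permutation p = 0.253), that of Abca1 minus Lrp1 had the smallest p (0.18, exact permutation p = 0.0152, adjusted p = 0.119) and that of Abca1 minus Abcg1 was 0.23 (exact permutation p = 0.0238, adjusted p = 0.119). Of the 10 pairs, 0 passed after adjustment and 1 had an unadjusted p under 0.05. An adjusted p that misses the threshold does not show that the transporters moved alike.

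**Figure D2:**
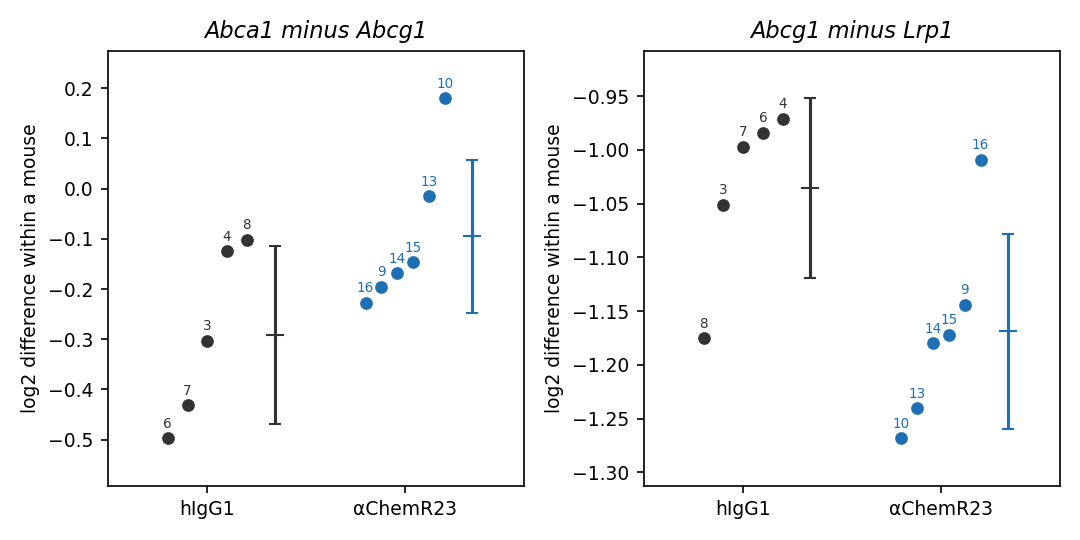
Log2 value of Abca1 minus Abcg1 (left) and of Abcg1 minus Lrp1 (right) within each mouse, with hIgG1 in black, αChemR23 in blue, mouse numbers above the points and bars for the mean ± SD (n = 5 and 6). Abca1 minus Abcg1 averaged -0.29 with hIgG1 and -0.10 with αChemR23, and the groups overlap in both panels.

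Apoe, which carries the exported cholesterol, was at 12.17, 12.50, 12.24, 12.46 and 12.35 in hIgG1 mice 3, 4, 6, 7 and 8. In αChemR23 mice its lowest, median and highest values were 12.25, 12.41 and 12.62. Mice 10 and 15 lay above all hIgG1 mice, and the other αChemR23 mice were within their range. The log2 difference was 0.09 (standard error 0.08, 95% interval -0.09 to 0.27, adjusted p = 0.726 from limma) between means of 12.34 ± 0.14 and 12.43 ± 0.14 (SD, n = 5 and 6), and it turned to -0.012 after quantile normalization.

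Lrp1, the receptor that binds apolipoprotein E, was at 11.14, 11.28, 11.11, 11.28 and 11.11 in the hIgG1 mice. With αChemR23 its lowest, median and highest values were 11.24, 11.30 and 11.32. Among the hIgG1 mice, mice 4 and 7 lay within the range of the αChemR23 mice and mice 3, 6 and 8 below all of them. Means were 11.18 ± 0.09 and 11.28 ± 0.04 (SD, n = 5 and 6), a log2 difference of 0.10 (standard error 0.05, 95% interval -0.02 to 0.22, adjusted p = 0.495 from limma). The exact permutation test gave p = 0.0433 for this gene alone, and 11.9% of all tested genes had a p under 0.05 by the same test. With single mice left out this p ran from 0.0143 to 0.0952 and stayed under 0.05 only without hIgG1 mouse 4, hIgG1 mouse 7 or αChemR23 mouse 15, the exact Mann-Whitney test gave 0.0519, and quantile normalization left a difference of 0.0096.

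Trem2, the lipid receptor, was weak, at 4.92, 4.52, 5.05, 5.27 and 4.50 in hIgG1 mice 3, 4, 6, 7 and 8. It reached 4.84 to 5.62 with αChemR23, with a median of 5.08. Mouse 15 had the highest value of all mice, with an estimated 50 raw counts (95% Poisson interval 37.1 to 65.9, for counting error only), and the other 5 αChemR23 mice had 33 or 34. The hIgG1 mice had 23 to 37. Means were 4.85 ± 0.34 and 5.15 ± 0.27 (SD, n = 5 and 6), a log2 difference of 0.30 (standard error 0.18, 95% interval -0.10 to 0.70, adjusted p = 0.534 from limma), and the exact permutation test gave p = 0.152. Its interval reaches a 1.62-fold higher mean with αChemR23, the widest of the 5 genes.

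The SD was smaller in αChemR23 than in hIgG1 mice for all 5 genes, as for 40.2% of all tested genes. It was 0.09 against 0.04 for Lrp1 and 0.20 against 0.11 for Abca1 (hIgG1 against αChemR23), while that of Apoe was 0.14 in both groups. The difference of the spreads was not tested.

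The other genes of lipid handling were taken from a list of 41 genes, 11 of them on the panel and tested, including the 5 above. The other 6 all had a higher mean with αChemR23, 0 of them at an unadjusted p under 0.05 (7.15% of all tested genes were higher at this level) and 0 at an adjusted p. Their median log2 difference was 0.17, where that of all tested genes was 0.03. Without αChemR23 mouse 15 the medians were 0.10 and 0.05. The scavenger receptor Msr1 differed by 0.31 (standard error 0.18), the apolipoprotein clusterin (Clu) by 0.21 (standard error 0.14) and Pparg, a nuclear receptor that alveolar macrophages need, by 0.19 (standard error 0.17). Lbp, which transfers bacterial lipid, the fatty acid translocase Cd36 and the amyloid precursor App followed at 0.15, 0.10 and 0.05. Adjusted p values of these 6 genes were 0.495 to 0.723 in limma, and after quantile normalization 5 of them were still higher.

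**Figure D3:**
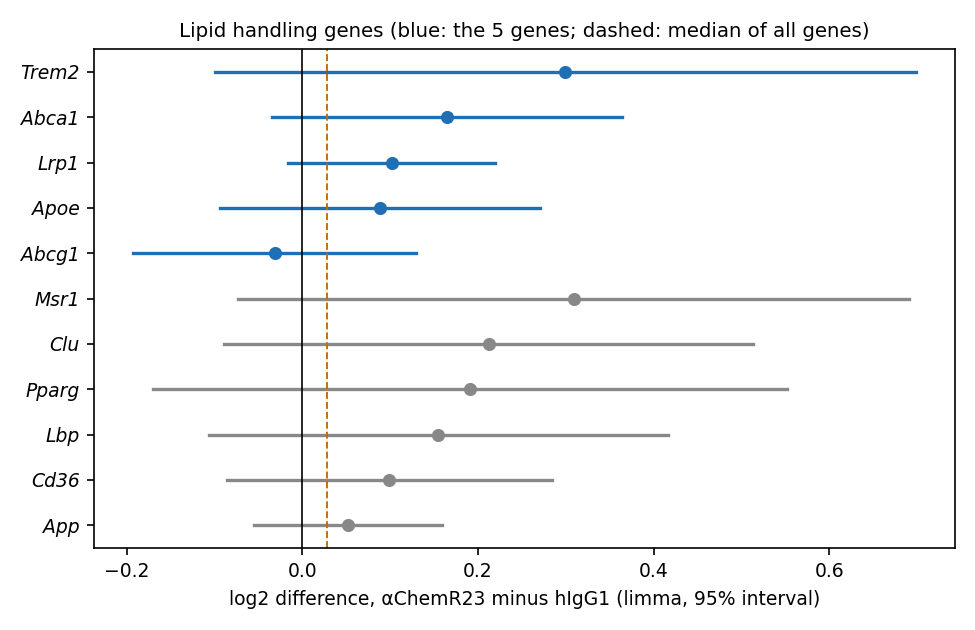
Log2 difference between αChemR23 and hIgG1 mice with its 95% interval from limma for the 11 tested genes of lipid handling, with Abca1, Abcg1, Apoe, Lrp1 and Trem2 in blue and the other 6 in gray. Every interval includes 0 (solid line), and 10 of the 11 points lie to the right of the median of all tested genes at 0.03 (dashed line).

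Genes known from lipid-laden macrophages mostly had a higher mean with αChemR23, and none passed the adjusted test. Apart from Apoe and Trem2, 17 genes of this list were tested, 16 had a higher mean with αChemR23 (57.4% of all tested genes did) and their median log2 difference was 0.15. At an unadjusted p under 0.05 there were 2, the lysosomal protease cathepsin L (Ctsl, 0.21, standard error 0.08) and the lysosome membrane protein Lamp1 (0.14, standard error 0.06), both higher, where 7.15% of all tested genes were, and 0 passed an adjusted p in limma. Cathepsin S (Ctss), the receptor dectin-1 (Clec7a), osteopontin (Spp1) and fibronectin (Fn1) had log2 differences of 0.21, 0.27, 0.27 and 0.16 with adjusted p of 0.483 to 0.495 from limma. The number of genes at an unadjusted p under 0.05 was 0 without hIgG1 mouse 3, where the median was 0.10, and 6 without hIgG1 mouse 6. The paper takes osteopontin as a marker of the metastatic tumor cells and used it to separate responding from non-responding αChemR23 mice. The difference of Spp1 can therefore not be assigned to macrophages, and its cell source was not tested. The list overlaps with that of lipid handling in Msr1 and Cd36.

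Ligands of Lrp1 and other genes of phagocytosis were less uniform. Of 17 tested genes other than Lrp1, 11 had a higher and 6 a lower mean with αChemR23, close to the 57.4% and 42.6% of all tested genes, and the median log2 difference was 0.06, or 0.0095 after quantile normalization. The nuclear alarmin Hmgb1 (0.17, standard error 0.06), the urokinase Plau (0.28, standard error 0.12) and C1qbp, which binds the complement component C1q (0.25, standard error 0.11), were higher at an unadjusted p under 0.05, as were 7.15% of all tested genes, and 0 passed an adjusted p in limma. Only 1 gene of the list had an unadjusted p under 0.05 without hIgG1 mouse 3, without αChemR23 mouse 9 or by the exact Mann-Whitney test. The urokinase receptor Plaur had a log2 difference of -0.27 (standard error 0.15), in the opposite direction to its ligand. Csf1r, the growth factor receptor of macrophages, and the complement subunit C1qa differed by 0.12 and 0.19, both with an adjusted p of 0.557 from limma. App is also on the list of lipid handling, and C1qa on that of lipid-laden macrophages, among other shared genes. The counts of these lists are therefore not independent.

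Across mice, Apoe followed the markers of macrophages and monocytes in the deposited values. The mean log2 value of 15 such markers, which hold none of the 5 genes, was 7.70, 8.09, 7.87, 8.00 and 7.71 in hIgG1 mice 3, 4, 6, 7 and 8, and 7.92, 8.01, 7.88, 7.89, 8.11 and 7.95 in αChemR23 mice 9, 10, 13, 14, 15 and 16. Mice 4 and 7 were the highest of the hIgG1 group for this score and also for Abca1, Abcg1, Apoe and Lrp1. Apoe and the score correlated at Pearson r = 0.799 (permutation p = 0.00375, adjusted p = 0.150) and Spearman rho = 0.909 (permutation p = 0.00031, adjusted p = 0.0124) over the 11 mice, with adjustment over 40 relations of the 5 genes with 8 marker lists. When the 2 mice with the most extreme scores were left out, Pearson r was 0.841. It was 0.775 after each group was centered on its mean and 0.846 in the 6 αChemR23 mice alone (exact permutation p = 0.0278; rho = 0.886, exact permutation p = 0.0333). The marker Emr1, which encodes F4/80, was matched through a synonym, and with the other 14 markers r was 0.772. Apoe and the score share the normalization of their mouse, and their relation was not recomputed after quantile normalization or with equal medians. Abca1, Abcg1, Lrp1 and Trem2 had r of 0.537, 0.529, 0.603 and 0.439 with the same score over the 11 mice (permutation p = 0.0874, 0.0932, 0.0512 and 0.176; rho = 0.582, 0.291, 0.345 and 0.473 with permutation p = 0.0661, 0.383, 0.301 and 0.147), which did not pass after adjustment and fell to 0.405, 0.247, 0.131 and 0.146 (r) when the same 2 mice were left out. In the 6 αChemR23 mice alone r with the score was 0.840 for Trem2 (exact permutation p = 0.0417; rho = 0.543, exact permutation p = 0.297), and it was below 0 for Abca1 (-0.052), Abcg1 (-0.363) and Lrp1 (-0.668, exact permutation p = 0.117). Of these 15 markers, 10 had a higher and 5 a lower mean with αChemR23, against 57.4% and 42.6% of all tested genes. C1qa and other markers are also on the lists of lipid-laden macrophages and phagocytosis. At an unadjusted p under 0.05 from limma 1 marker was higher and 1 lower (7.15% and 2.74% of all tested genes), and 0 passed an adjusted p. The higher one was Cx3cr1 (log2 difference 0.54, adjusted p = 0.0886 from limma). The lower one was Marco (log2 difference -0.62, adjusted p = 0.483 from limma). The summed level of the 15 markers spanned 4395 to 6250 normalized counts with hIgG1 and 5465 to 6991 with αChemR23. Their part in the differences of the 5 genes between the groups was not tested.

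Among the 5 genes themselves, Abca1 and Lrp1 had the highest correlation of the deposited values, but not of centered or quantile-normalized values. They correlated at r = 0.760 over the 11 mice (permutation p = 0.00615, adjusted p = 0.0615 over 10 pairs; rho = 0.736, permutation p = 0.0128, adjusted p = 0.128) and at r = 0.626 when the 2 mice with the most extreme Abca1 values were left out. With each group centered on its mean r was 0.660 for Abca1 and Lrp1 and 0.661 for Abcg1 and Lrp1, and after quantile normalization it was 0.531 and 0.731. Within the 6 αChemR23 mice r of Abca1 and Lrp1 was 0.418 (exact permutation p = 0.456; rho = 0.543, exact permutation p = 0.297). Abca1 and Apoe had r = 0.641 (permutation p = 0.0338, adjusted p = 0.169; rho = 0.591, permutation p = 0.0615), which fell to 0.377 without those 2 mice, on which it rests in part. Abca1 and Abcg1 had r = 0.185 (permutation p = 0.587; rho = 0.136, permutation p = 0.692). Of the 10 pairs, 0 passed an adjusted p of 0.05, and 2 had an unadjusted p under it by Pearson r. In αChemR23 mice alone Lrp1 and Trem2 ran in opposite directions (r = -0.880, exact permutation p = 0.00694, adjusted p = 0.0694; rho = -0.829, exact permutation p = 0.0583), while r was 0.222 over the 11 mice (permutation p = 0.509; rho = 0.0909, permutation p = 0.795), and Trem2 differed by only 1 raw count between 5 of these 6 mice.

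**Figure D4:**
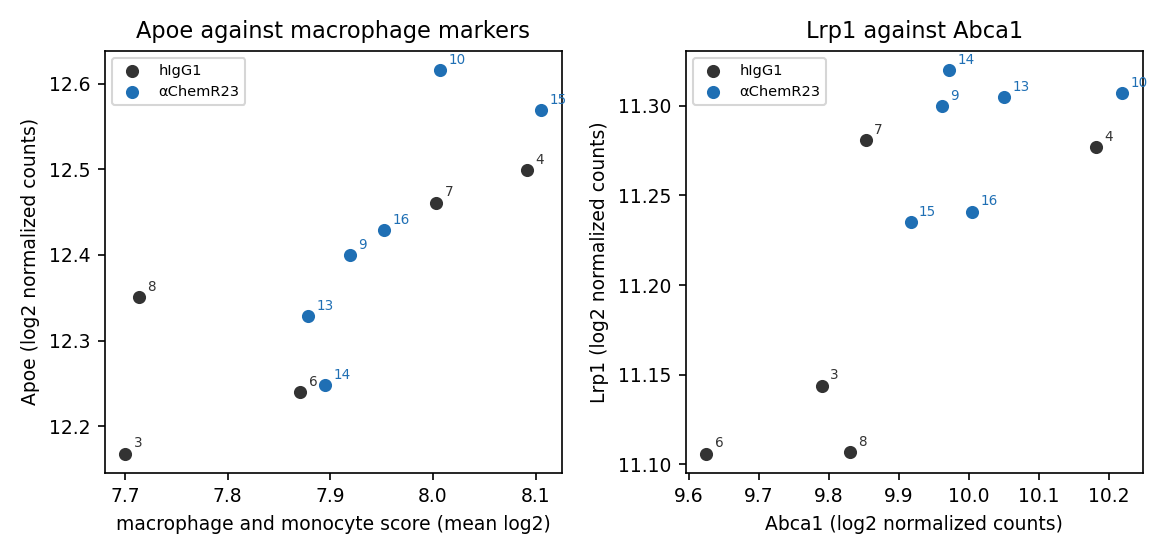
Left, Apoe (log2 normalized counts) against the mean log2 value of 15 macrophage and monocyte markers; right, Lrp1 against Abca1 (log2 normalized counts), 1 point per mouse with its number, hIgG1 in black and αChemR23 in blue. Pearson r over the 11 mice was 0.799 on the left and 0.760 on the right, and hIgG1 mice 3, 6 and 8 are the 3 lowest for Lrp1.

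For each gene, the 3 tested genes with the most similar values across the 11 mice after centering of each group were listed as a description, without a test, since they were the highest of 656 correlations. All points of such a comparison share the normalization of their mouse. The closest to Abca1 were the cytokine receptor subunit Il6st (r = 0.840), the anti-apoptotic Bcl2l1 (0.786) and the housekeeping gene Eif2b4 (0.781). Abcg1 was closest to Cd207 (0.810), which encodes langerin, to Cd200r1 (0.783), an inhibitory receptor of myeloid cells, and to the kinase Tbk1 (0.782). Apoe was closest to complement C3 (0.850), to Emr1 (0.830) and to the transcription factor Runx1 (0.814), Lrp1 to the cytokine Mif (0.909), Tnfrsf17 (0.806) and Pdcd1lg2 (0.790), and Trem2 to Il17b (0.890), the kinase Map2k1 (0.814) and the monocyte chemokine Ccl2 (0.811). The Spearman rho of these genes after the same centering ran from 0.482 (Eif2b4) to 0.918 (Bcl2l1), with 0.600 for Il6st and 0.564 for Cd200r1. Tnfrsf17 and Il17b averaged 20.5 and 21.6 normalized counts and each lay at the lowest value in 1 mouse.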

How the data were processed

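Lung RNA of 5 hIgG1 and 6 αChemR23 mice (50 ng) was counted on the nCounter Sprint. The deposited table holds log2 values that the authors had normalized in nSolver, with settings that the sources used here do not state, and the submitters' processing notes also name DESeq2. Base 2 was taken from the low values. Values above the lowest of their mouse and under 60 normalized counts were all (100%) whole multiples of a step per mouse. The tolerance was 0.1 of a raw count, and these steps gave the estimated raw counts. The lowest value itself, shared by 33 to 97 genes per mouse, was left out of this check. The deposited log2 values were compared by limma 3.58.1 in R 4.3.3 with a trended eBayes, for the 657 genes averaging 20 or more normalized counts, and p-values were adjusted over all of them by Benjamini-Hochberg. DESeq2 was not run. Single genes and differences of 2 genes within a mouse were compared by exact two-sided permutation over all 462 splits (smallest p 0.00216), and correlations with 100000 permutations or exactly within 6 mice (SciPy 1.17.1). Mice are separate animals, and no batch is named in the labels.

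The 5 genes and the lists were chosen with earlier results of these data known. Named beside the 5 genes were up to 6 genes with the smallest unadjusted p of the lists of lipid handling, lipid macrophages and phagocytic partners, and the 3 genes closest to each. Cx3cr1 and Marco were named as the macrophage markers at an unadjusted p under 0.05. List genes were matched by symbol regardless of case, and Adgre1 by its synonym Emr1. The scripts were tested on simulated data with 200 changed genes. There, an adjusted p under 0.05 in limma was reached by 30.9% of log2 changes of 0.25 and 71.6% of those of 0.5. Results were recomputed without the filter, with a minimum of 50, with log2(value + 10), after quantile normalization, equal medians or housekeeping scaling, with array weights, robust eBayes, limma voom on the estimated raw counts or exact Mann-Whitney tests, with neutrophil markers as a covariate and without each mouse. Correlations with marker scores were computed from the deposited values alone.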

Additional observations from a re-analysis of the deposited data

Results flagged for a closer look

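Single mice that stood apart within their group were sought for 38 of the genes named above, without Cx3cr1 and Marco. Of 76 groups, 4 exceeded Dixon's limit, which chance exceeds in about 1 in 20. None of them was Abca1, Abcg1, Apoe, Lrp1 or Trem2. Cd200r1, one of the genes closest to Abcg1, had a log2 value of 6.53 in hIgG1 mouse 8, below the 7.22 to 7.48 of its group. In αChemR23 mouse 16 the same gene had 7.70, above the 7.04 to 7.28 of the remaining αChemR23 mice. Abcg1 was also lowest of its group in mouse 8 and highest of its group in mouse 16. Cd200r1 was listed because its values resembled those of Abcg1, so this is no separate observation. Hmgb1 (10.09) and Plau (7.68) both exceeded the limit in αChemR23 mouse 9, where the remaining mice of that group reached at most 9.997 and 7.38.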

How the results depend on the processing

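No paired analysis was possible because mouse numbers differ between the groups. Abca1, Lrp1 and Trem2 kept a higher mean with αChemR23 in every alternative that was run, at log2 differences of 0.11 to 0.25, 0.0096 to 0.13 and 0.20 to 0.40, and none of the 5 genes passed an adjusted p of 0.05 in any of them (lowest 0.391, for Abca1 with array weights). The changed filters, robust eBayes and the exact Mann-Whitney test cannot alter a difference of means, which stayed at 0.165 for Abca1. Housekeeping scaling also left 0.165, because all mice already had the same housekeeping mean. In these settings only the p-value could change, so the kept sign is no test of the direction there. With them counted, an unadjusted p under 0.05 came up in 3 of 22 alternatives for Abca1, 2 of 22 for Lrp1 and 1 of 21 for Trem2. Quantile normalization turned Apoe (-0.012), and leaving out single mice gave -0.085 to 0.0081 for Abcg1 and 0.044 to 0.13 for Apoe. A minimum mean of 50 left out Trem2. Of all genes, 0 passed, against 1 after quantile normalization, 4 with the neutrophil covariate and 0 to 3 over the left-out mice (3 without αChemR23 mouse 10). The 65 genes at an unadjusted p under 0.05 became 41 by exact Mann-Whitney tests and 39 to 80 over the left-out mice (lowest without αChemR23 mouse 9, and 43 without hIgG1 mouse 3). Lrp1 was the 1 gene of the 5 with an unadjusted exact permutation p under 0.05. Equal medians and the exact Mann-Whitney test gave 0, quantile normalization gave Abca1 in its place (p = 0.0346), and leaving out a mouse gave 0 to 2, with exact permutation p = 0.00476 for Abca1 without hIgG1 mouse 4. Within mice, Abca1 minus Trem2 ran from -0.24 to 0.030 and Apoe minus Lrp1 from -0.051 to 0.030 over the left-out mice. The correlation of Lrp1 and Trem2 turned with centered groups (-0.137), after quantile normalization (-0.0359), without the 2 most extreme mice (-0.138) and in αChemR23 mice alone (-0.880). In αChemR23 mice alone those of Abcg1 with Abca1 (-0.424), Apoe (-0.432), Lrp1 (-0.276) and Trem2 (-0.193) and of Apoe with Lrp1 (-0.452) turned too. That of Abcg1 with Apoe also turned after quantile normalization (-0.0429) and without 2 mice (-0.0533), and that of Abcg1 with Trem2 after quantile normalization (-0.0568). For settings that removed no mouse, the cause was not tested. The low counts of Trem2 limit its comparison.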

Other observations

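The lists of other cell types showed the following in the same lungs, with 0 genes at an adjusted p of 0.05 in limma. All 7 tested T cell genes and all 3 platelet genes had a lower mean with αChemR23 (median log2 difference -0.155 and -0.24), 6 of 8 neutrophil genes were lower (-0.16), and all 5 B cell genes (0.52), all 4 epithelial and carcinoma genes (0.16), 4 of 5 fibroblast genes (0.19) and 6 of 7 endothelial genes (0.04) were higher. Of all tested genes, 57.4% had a higher and 42.6% a lower mean with αChemR23. At an unadjusted p under 0.05 there were 3 B cell genes and 1 endothelial gene, all higher, as were 7.15% of all tested genes. The summed neutrophil markers spanned 74788 to 127775 normalized counts with hIgG1 and 36515 to 162282 with αChemR23. With the neutrophil score as a covariate the log2 differences of Abca1, Apoe, Lrp1 and Trem2 were 0.18, 0.10, 0.10 and 0.32. That of Abcg1 was -0.028, and the adjusted p values of the 5 genes were 0.429 to 0.906 from limma. The lists share genes with those of the report (Fn1 with fibroblasts, Spp1 with epithelial and carcinoma cells), and the surfactant genes Sftpb and Sftpc were not analysed here.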
